A study of Mus musculus with 20 samples.

Results

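Hearts of MuRF1 +/+ mice that had eaten chow with 0.05% (w/w) fenofibrate for 8 weeks (3 hearts) were compared with hearts of MuRF1 +/+ mice that had eaten the same chow for 3 weeks (4 hearts), across all genes measured. These are 7 of the 20 hearts of the series, chosen by their titles. The other hearts were MuRF1 -/- after 8 weeks (3 hearts) or 3 weeks (4 hearts) of fenofibrate, and 3 MuRF1 +/+ and 3 MuRF1 -/- hearts after 8 weeks of chow alone. Each array held 1 heart in the Cy5 channel, per the channel labels, against a Cy3 reference of pooled RNA from whole newborn C57BL/6 mice (postnatal day 1). Both MuRF1 +/+ groups had received the drug, so the comparison sets a longer against a shorter exposure, and the age of the animals and the time on the diet cannot be told apart. The labels give neither sex nor age for a heart, and the series text names mice of 3 to 8 weeks. They call the hearts separate biological replicates. The series addresses the part of MuRF1 in the heart growth seen with fenofibrate.

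MuRF1 is a muscle ubiquitin ligase, encoded by Trim63, that marks sarcomere proteins and other muscle proteins for breakdown. Fenofibrate is a lipid-lowering drug whose active acid binds the nuclear receptor PPAR alpha, which switches on genes of fatty acid uptake and oxidation and holds back the use of glucose. In the heart, which burns mainly fatty acids, PPAR alpha targets such as Pdk4 and Acot1 also respond to fasting. Glucocorticoids, whose blood level follows stress and time of day, act on a partly overlapping set of genes that includes Pdk4, the metallothioneins and Cebpd.

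A level below is the log2 ratio of the heart signal over the reference signal of the probe that represents a gene, and a difference is the 8-week minus the 3-week mean on that scale. Differences are given ± SE from limma with a p adjusted over all 14567 genes tested, and a gene is called when that p is below 0.05. Levels of different genes cannot be set against each other. In whole hearts, fewer cells of a type and less RNA per cell cannot be told apart.

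Heart spots well above background made up 43.7%, 34.8% and 37.6% on the 8-week arrays (replicates 1 to 3) and 48%, 47.1%, 41.5% and 44.7% on the 3-week arrays (replicates 1 to 4). Cardiomyocyte markers were well above background on 7 of 7 arrays for Myh6, Myl2, Tnnt2, Tnni3, Actc1, Ttn and Nppa and on 5 of 7 for Ryr2. The Trim63 probe read 2.85, 0.79 and 2.41 at 8 weeks, 2.81, 2.72, 2.14 and 2.6 at 3 weeks, and averaged between -1.01 and -0.95 in the 3 MuRF1 -/- groups. The low Trim63 value belonged to 8-week replicate 2, an array that stood apart. It lay at 45.8 on the second principal component, where the other 8-week arrays lay at 6.41 and 18.9, and correlations of log2 ratios were 0.795 to 0.951 between 8-week arrays, against 0.975 to 0.988 between 3-week arrays. Calls lost without it are given below with and without it. Y-linked Ddx3y and Eif2s3y were well above background on 0 of 3 8-week and 0 of 4 3-week MuRF1 +/+ arrays, but on 3 of 3 MuRF1 +/+ chow arrays, and in MuRF1 -/- hearts on 2 of 3 8-week, 1 of 4 3-week and 3 of 3 chow arrays. The part of this in the comparisons with chow and with MuRF1 -/- hearts was not tested.

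Between the diet times 2546 of 14567 genes were called (17.5%), of which 1150 rose (7.89% of the genes tested) and 1396 fell (9.58%). Most changes were small. The median size among called genes was 0.46 on the log2 scale, 108 genes rose and 92 fell at least 2-fold, and 20 rose and 11 fell at least 4-fold. The arrays of the groups did not overlap for 3555 genes (24.4%), which included 2273 of the called ones. Of the called lower genes, 327 were not well above background on any 8-week array, so that their 8-week level is a bound. Rising genes made up 45.2% of the calls. With each array centred on its median in place of loess, they made up 10.2% (124 rose and 1093 fell), and the median difference of all genes was -0.2, so a list or gene at -0.2 under that scaling stood level with the bulk. With the spread estimated from the 7 arrays alone, 1027 genes were called (371 higher and 656 lower). On the slides that held 1 array of both groups, 73.5% (8-week replicate 1 and 3-week replicate 2) and 77.3% (8-week replicate 3 and 3-week replicate 4) of all genes had the sign of the pooled difference, which these arrays helped to set.

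**Figure D1:**
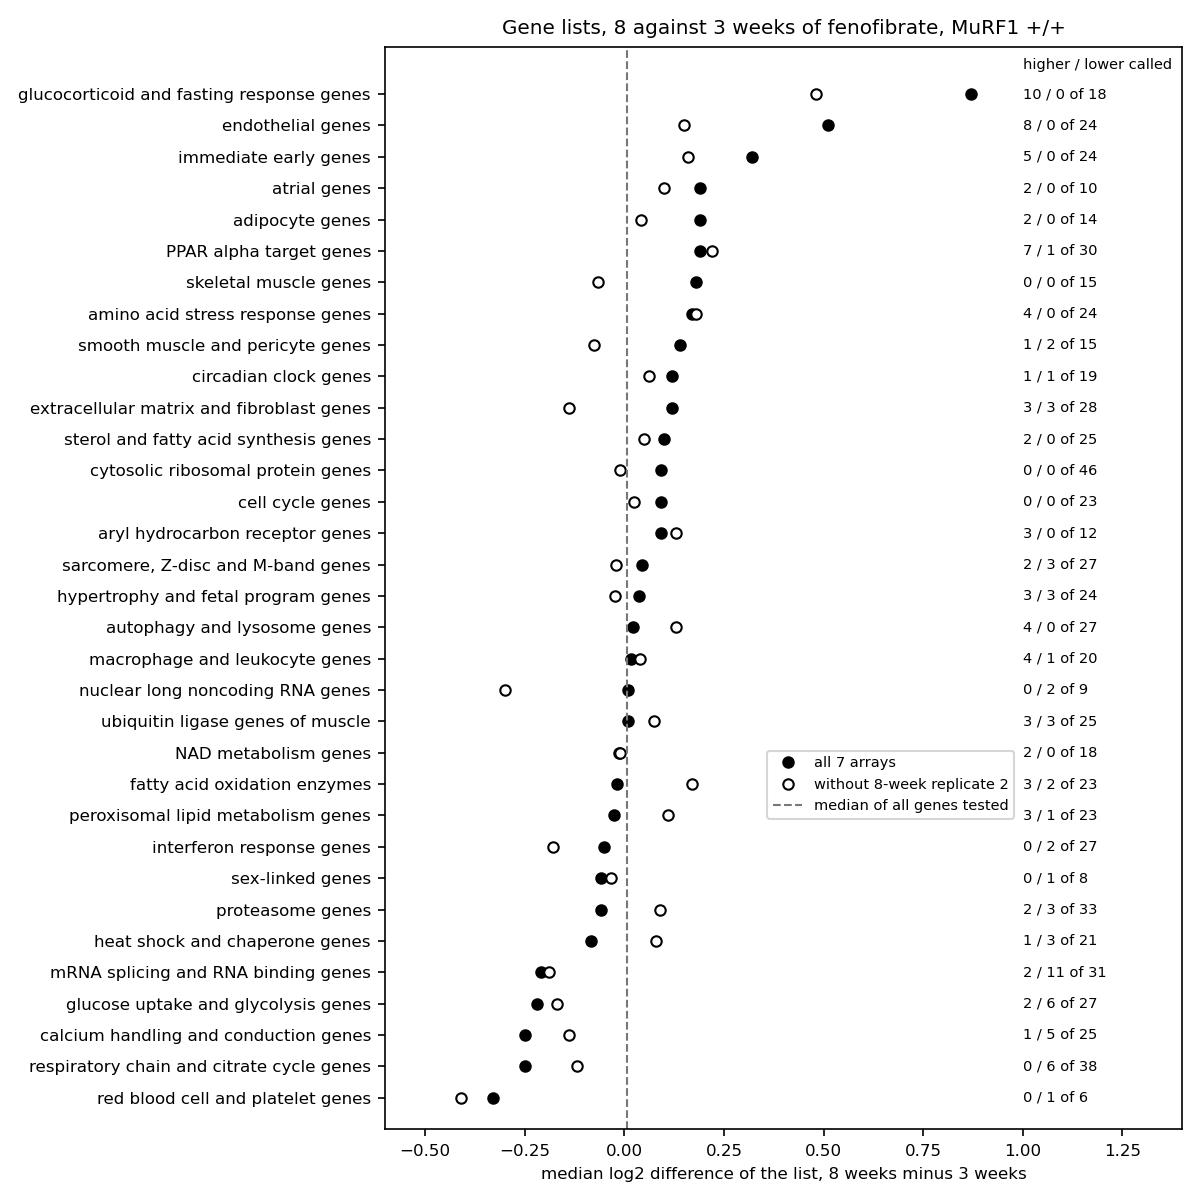
Median log2 difference, 8 minus 3 weeks of fenofibrate in MuRF1 +/+ hearts, for each of 33 gene lists, with all 7 arrays (filled) and without 8-week replicate 2 (open). The dashed line is the median of all genes tested (0.007), and the figures at the right count the members called higher and lower among those tested. Glucocorticoid and fasting response genes have the highest median (0.87) and red blood cell and platelet genes the lowest (-0.33).

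The highest list median among 33 gene lists belonged to the glucocorticoid and fasting response genes. Of 18 tested members, 10 rose and 0 fell, and the median difference was 0.87, against 0.007 for all genes tested. Over all genes tested 7.89% rose and 9.58% fell, the shares to set beside the counts of each list. The metallothioneins Mt2 and Mt1, small cysteine-rich proteins that bind zinc and copper, were among its leading members. Their promoters are shown because these neighbouring genes rose together. Each is the 250 bases before the gene's start in RefSeq (GRCm38.p6), plus strand, with capitals on matches to TGCACNC or TGCGCNC, the core of the metal response element, on either strand.
Mt2: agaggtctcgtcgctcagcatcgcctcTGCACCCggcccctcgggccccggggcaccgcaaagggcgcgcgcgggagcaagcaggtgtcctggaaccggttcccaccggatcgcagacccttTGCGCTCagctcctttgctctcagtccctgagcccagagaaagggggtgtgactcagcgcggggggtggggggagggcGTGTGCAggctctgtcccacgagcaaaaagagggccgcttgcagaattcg
Mt1: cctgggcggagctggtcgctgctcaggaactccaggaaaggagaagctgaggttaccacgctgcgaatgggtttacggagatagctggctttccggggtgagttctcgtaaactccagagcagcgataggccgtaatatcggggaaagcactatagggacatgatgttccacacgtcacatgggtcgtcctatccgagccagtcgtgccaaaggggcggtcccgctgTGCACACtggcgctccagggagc
The Mt2 window (chr8:94172368-94172617) held 3 matches, 2 on the given strand and 1 on the other, and 1.26% of 32851 RefSeq promoter windows of that length held at least as many. The Mt1 window (chr8:94178839-94179088) held 1 match, and 21.4% of the windows held at least 1. A match describes the letters and is not a measured binding site. Bases outside these windows were not searched, so the counts do not tell how many elements each gene has.

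Mt2 read 1.67, 0.32 and -0.98 at 8 weeks, against -3.12, -3.16, -3.02 and -3.2 at 3 weeks. All 8-week hearts lay above all 3-week hearts, with an 8-week spread far wider than the 3-week one, and the chow hearts averaged -2.79. The difference was 3.46 ± 0.42 (adjusted p = 4.48e-05, an 11.0-fold change), and it was 3.47 without 8-week replicate 2. Mt1 read 2.27, 1.56 and 1.46 at 8 weeks, against -0.0048, -0.19, -0.16 and -0.22 at 3 weeks. Its groups were likewise apart, with a difference of 1.91 ± 0.15 (adjusted p = 8.25e-07). A second, dimmer Mt1 probe differed by -0.015 (adjusted p = 0.922). Whether the probes of Mt1 and Mt2 bind both transcripts was not tested.

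The transcription factors Cebpb and Cebpd, which act early in stress and inflammatory responses, also rose. Cebpb read 1.22, 1.39 and 1.32 at 8 weeks, against -1.49, -0.65, -0.59 and -1.07 at 3 weeks, a difference of 2.26 ± 0.23 (adjusted p = 9.32e-06), and its other probe rose by 0.85. Cebpd read 1.03, 2.26 and 0.81 at 8 weeks, against -1.19, -0.6, -0.94 and -0.93 at 3 weeks, a difference of 2.28 ± 0.28 (adjusted p = 4.53e-05). In both genes the groups did not overlap, and the chow means (-0.29 for Cebpb and -0.024 for Cebpd) lay between the 2 diet times. Cdkn1a, the cell cycle inhibitor p21, read 0.21, 0.62 and -0.15 at 8 weeks, against -1.28, -1.3, -1.08 and -1.13 at 3 weeks (difference 1.42 ± 0.16, adjusted p = 2.3e-05). Ddit4, an inhibitor of mTORC1 signalling, read 1.22, 2.89 and 0.88 at 8 weeks, against -0.49, -0.31, -0.49 and -0.38 at 3 weeks (difference 2.08 ± 0.36, adjusted p = 0.000793). For both, every 8-week heart lay above every 3-week heart, and Ddit4 was highest on 8-week replicate 2. Pnpla2, the triglyceride lipase that starts lipolysis, rose by 1.4 ± 0.14 (adjusted p = 5.8e-06). Klf9, Sesn1 and Tsc22d3, all known to answer to glucocorticoids or fasting, rose by 0.85, 0.43 and 0.89. Tsc22d3 was not called without 8-week replicate 2 (0.42, adjusted p = 0.0518), and Sesn1 was not called without 8-week replicate 3 (0.26, adjusted p = 0.184) or 3-week replicate 2 (0.0597), 3 (0.0623) or 4 (0.0765).

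Not every member of the list was called. Nfkbia, an inhibitor of NF-kappa B, differed by 1.0 (adjusted p = 0.0585, and 0.3 without 8-week replicate 2), Per1 of the clock by 0.4 (adjusted p = 0.0904) and Igfbp1 by 0.48 (adjusted p = 0.316, and 0.065 without that array). Without 8-week replicate 2 the list had 10 members called higher and 0 lower, and its median was 0.48. Mt2, Mt1, Cebpb, Cebpd, Cdkn1a and Ddit4 were called under every alternative run.

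**Figure D2:**
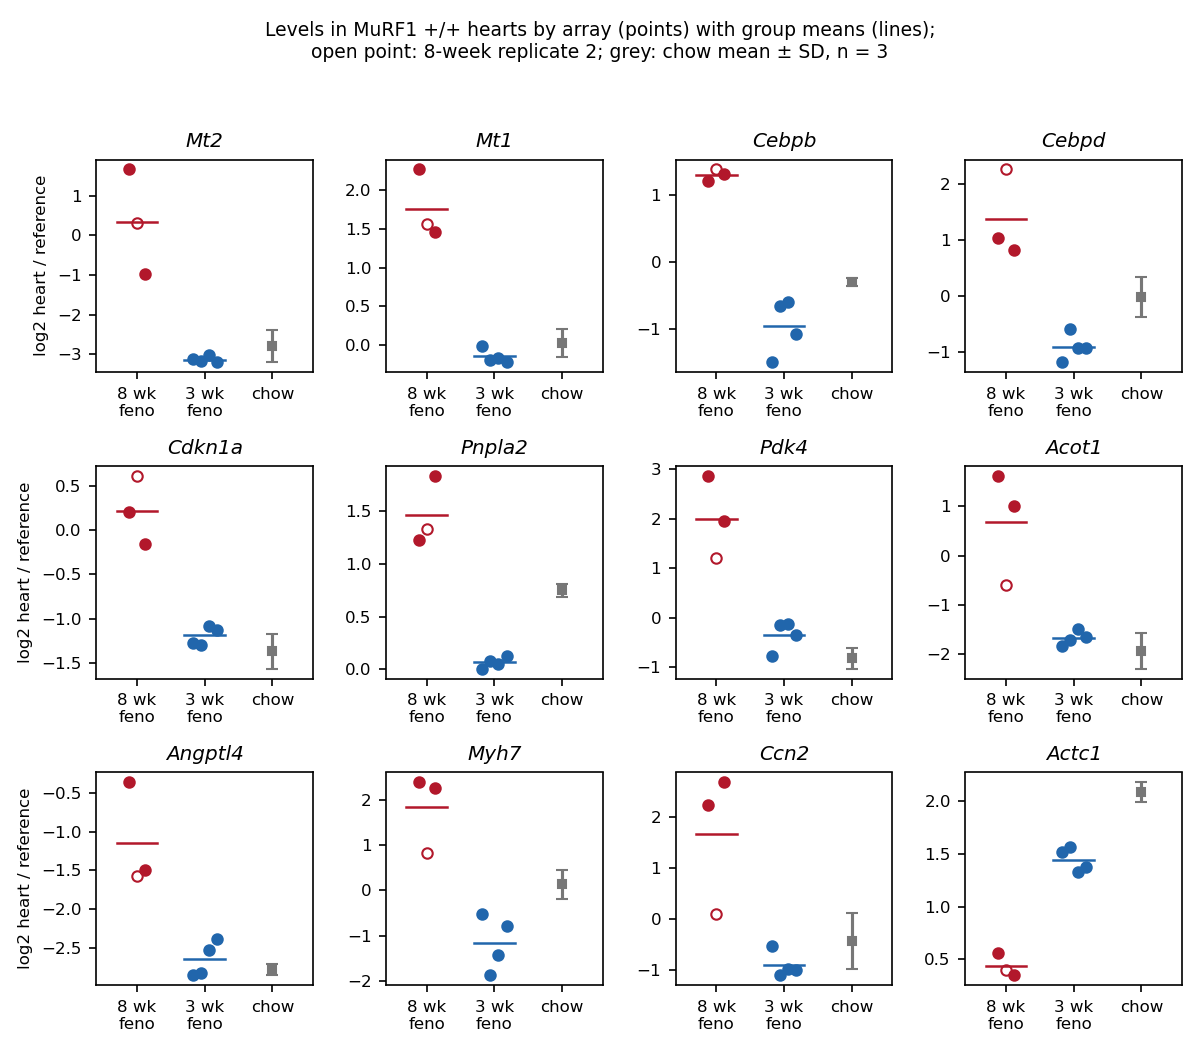
Log2 ratio of heart over reference on each MuRF1 +/+ array for 12 genes, at 8 and 3 weeks of fenofibrate, with lines at group means, 8-week replicate 2 as an open point, and the chow mean ± SD (n = 3) in grey. The 8-week and 3-week hearts do not overlap in any panel, and 11 genes lie higher at 8 weeks while Actc1 lies lower.

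Among genes that PPAR alpha is known to switch on, 7 of 30 tested members rose and 1 fell, with a median of 0.19. The median was -0.2 with median centring, the same as the shift of all genes, and 0.22 without 8-week replicate 2. In the series matrix 5 members were higher and 3 lower, and with median centring 2 and 1. Pdk4, the kinase that shuts off pyruvate dehydrogenase, read 2.87, 1.2 and 1.95 at 8 weeks, against -0.77, -0.14, -0.12 and -0.34 at 3 weeks. Acot1, a cytosolic acyl-CoA thioesterase, read 1.62, -0.59 and 1.01 at 8 weeks, against -1.83, -1.72, -1.5 and -1.65 at 3 weeks. The groups were apart for both genes, and on both 8-week replicate 2 was the lowest of the 8-week hearts. Pdk4 differed by 2.35 ± 0.33 (adjusted p = 0.000154) and Acot1 by 2.36 ± 0.36 (adjusted p = 0.00028). Their chow means (-0.82 and -1.94) lay below every 3-week heart.

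Angptl4, a secreted inhibitor of lipoprotein lipase, read -0.36, -1.57 and -1.49 at 8 weeks, against -2.85, -2.82, -2.53 and -2.39 at 3 weeks. Its groups did not overlap, and the difference was 1.51 ± 0.34 (adjusted p = 0.00496). The uncoupling protein Ucp2 rose by 0.45 ± 0.081 (adjusted p = 0.000941) and the fatty acid transporter Slc27a1 by 0.89 ± 0.26, a call that was lost without 8-week replicate 1 (0.58, adjusted p = 0.115) or 3 (0.0889) or 3-week replicate 1 (0.0544) or 3 (0.0521). The carnitine transferase Cpt1a rose by 0.26 (adjusted p = 0.0357). Its call was lost without 8-week replicate 2 (adjusted p = 0.0705) or 3 (0.0882) or 3-week replicate 1 (0.0896), 2 (0.0882) or 3 (0.0607), and its difference was -0.13 with median centring. Creb3l3, a liver and gut transcription factor that is also a PPAR alpha target, fell, reading -2.35, -1.77 and -1.97 at 8 weeks, against -0.91, -0.98, -1.05 and -1.1 at 3 weeks. Its groups were apart, the difference was -1.02 ± 0.2 (adjusted p = 0.00166), and chow averaged -2.43.

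Other PPAR alpha targets were not called on their brightest probe with all arrays. The mitochondrial thioesterase Acot2 differed by 0.72 (adjusted p = 0.0761, and 1.15 with adjusted p = 0.00182 without 8-week replicate 2), and Mlycd by 0.62 (adjusted p = 0.0518, and 0.98 with adjusted p = 0.000375 without that array). The fatty acid carrier Cd36 differed by 0.54 (adjusted p = 0.0598, and 0.72 with adjusted p = 0.0187 without 8-week replicate 1), while its other probe was called, at 0.53 (adjusted p = 0.0038). Cpt1b, the muscle form of the carnitine transferase, differed by 0.093 and Ucp3 by 0.22. Acot1 and Acot2 are near-identical, so their probes may bind both transcripts.

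Among enzymes of mitochondrial fatty acid oxidation and lipolysis 3 of 23 rose and 2 fell, with a median of -0.019. These counts lay near the shares over all genes (7.89% and 9.58%). Besides Pnpla2, the lipase Lipe rose by 0.35 and Dgat1, which makes triglycerides, by 0.36. The hydratase Echs1 fell by 0.58 and Etfdh, which passes electrons to ubiquinone, fell by 0.79. Both falls were lost without 8-week replicate 2 (adjusted p = 0.178 for Echs1 and 0.253 for Etfdh), where 5 members of the list were higher and 0 lower, with a median of 0.17. Both were lost without 3-week replicate 1 too (0.102 and 0.074), and Echs1 without 3-week replicate 2 (0.0747), 3 (0.0766) or 4 (0.0532). Etfdh had no value on 8-week replicate 1 and 3-week replicate 3, and its other probe differed by 0.039 (adjusted p = 0.924). Dgat1 lost its call without 8-week replicate 2 (adjusted p = 0.0917) or without 3-week replicate 1 (0.0897), 2 (0.0608) or 4 (0.051), or 8-week replicate 3 (0.0524). Of 23 peroxisomal genes 3 rose and 1 fell, beside 7.89% and 9.58% of all genes. Hsd17b4, of peroxisomal beta-oxidation, rose by 0.58, and the import factors Pex14 and Pex6 rose by 0.66 and 0.75, while the transporter Abcd3 fell by 0.63.

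Genes of glucose use fell more often than they rose, 6 against 2 of 27 tested, with a median of -0.22. Under 4 scaling alternatives the list median lay between -0.68 and -0.25, where the median of all genes was negative too (-0.2 to -0.015). Pfkfb2, the heart enzyme that makes the activator of phosphofructokinase, read 0.052, 0.081 and 0.35 at 8 weeks, against 1.28, 1.22, 1.31 and 1.08 at 3 weeks. The groups lay clearly apart, and the difference was -1.06 ± 0.091 (adjusted p = 1.28e-06). Another Pfkfb2 probe fell by 0.72 and a dim one differed by -0.16. The muscle hexokinase Hk2 fell by 0.65 ± 0.14 (adjusted p = 0.00334), whereas the general hexokinase Hk1 and the glucose carrier Slc2a1 rose by 0.47 and 0.49. Pdhb, a pyruvate dehydrogenase subunit, fell by 0.91, the glycolytic enzymes Pgk1 and Tpi1 by 0.64 and 0.47, and the pyruvate carrier subunit Mpc2 by 0.37. These last 4 falls were not called without 8-week replicate 2 (adjusted p = 0.139 for Pdhb, 0.0964 for Pgk1, 0.235 for Tpi1 and 0.07 for Mpc2), where 2 members of the list were higher and 2 lower. Of them, Mpc2 alone was called with each of the other arrays left out, the highest adjusted p being 0.0644 for Pdhb, 0.0558 for Pgk1 and 0.108 for Tpi1 without 1 of these. Slc2a1 was not called without 8-week replicate 3 (adjusted p = 0.0769). The list had 1 member higher and 10 lower in the series matrix, 0 and 3 with median centring, 0 and 2 from the 7 arrays alone and 2 and 2 with slide as a block.

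Respiratory chain and citrate cycle genes had 0 of 38 members called higher and 6 lower, with a median of -0.25. The called members were Cycs (-0.67), Ndufb5 (-0.86), Ndufs1 (-0.48), Sdhd (-0.88), Uqcrc2 (-0.47) and Uqcrfs1 (-0.47), which carry or pass electrons in complexes I to III or as cytochrome c. The mean level of the list was 1.62, 1.14 and 1.6 on the 8-week arrays, against 1.67 to 1.77 on the 3-week arrays. The array with the lowest mean was 8-week replicate 2. Without it 0 members were called higher and 1 lower, Uqcrfs1, and the median was -0.12. Ndufs1 and Sdhd were not called without some of the 3-week arrays either (adjusted p up to 0.101 and 0.073). The series matrix gave 0 higher and 13 lower (median -0.66), median centring and the 7 arrays alone each gave 0 and 0, and slide as a block gave 0 and 1.

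Among sarcomere, Z-disc and M-band genes 2 of 27 rose and 3 fell, near the shares over all genes (7.89% and 9.58%). Myh7, the slow or beta myosin heavy chain that mouse ventricles express mainly before birth and in stressed hearts, read 2.4, 0.84 and 2.27 at 8 weeks, against -0.52, -1.88, -1.42 and -0.79 at 3 weeks. Every 8-week heart exceeded every 3-week heart. The difference was 2.99 ± 0.41 (adjusted p = 0.000108), another Myh7 probe gave 3.34, and chow hearts averaged 0.14, between the 2 diet times. Myh6, the alpha myosin of the adult mouse heart, differed by 0.098 (adjusted p = 0.679). Actc1, cardiac alpha actin, read 0.56, 0.4 and 0.35 at 8 weeks, against 1.51, 1.56, 1.33 and 1.37 at 3 weeks, and 2.08 on average in chow hearts. Its groups were apart and the difference was -1.0 ± 0.2 (adjusted p = 0.00183). The M-band genes moved in opposite directions, with Myom2 rising by 0.57 and Myom1 falling by 0.43, although Myom2 differed by -0.0069 in the authors' series matrix and was not called without 8-week replicate 3 (adjusted p = 0.0839). The Z-disc gene Nebl fell by 0.96, a call that was lost without 8-week replicate 2 (adjusted p = 0.229) or 3-week replicate 1 (0.105), 2 (0.0816) or 3 (0.0581). Without 8-week replicate 2 the list had 6 members higher and 4 lower.

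Of 24 genes of hypertrophy and the fetal program, 3 rose and 3 fell, near the shares over all genes (7.89% and 9.58%). Ccn2, a matricellular growth factor of fibrosis, read 2.24, 0.099 and 2.68 at 8 weeks, against -0.54, -1.11, -0.98 and -1.0 at 3 weeks. The groups were apart, and the difference of 2.58 ± 0.43 (adjusted p = 0.000502) was 3.37 without 8-week replicate 2. Tgfb1 rose by 0.34 ± 0.06. Klf15, a repressor of cardiac growth, rose by 0.63, while its other probe differed by -0.13 (adjusted p = 0.715). The Klf15 call was lost with any of 6 arrays left out in turn, all but 8-week replicate 2 (adjusted p of 0.0519 to 0.142). Fhl2, a LIM protein of the Z-disc, read 3.69, 4.0 and 4.05 at 8 weeks, against 4.94, 4.77, 5.03 and 5.04 at 3 weeks, with no overlap (difference -1.03 ± 0.16, adjusted p = 0.000284). Xirp2, an actin-binding protein of the intercalated disc, fell by 1.14 ± 0.15 (adjusted p = 7.23e-05), and Hopx by 0.79. Among markers of load, Nppa differed by 0.051, Nppb by -0.68 (adjusted p = 0.246) and Acta1 by 0.28, and none of these was called. Myh7, given above with the sarcomere genes, rose by 2.99.

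Calcium handling and conduction genes had 1 of 25 members called higher and 5 lower, with a median of -0.25. Under 4 scaling alternatives the list median lay between -0.49 and -0.23, where the median of all genes was negative too (-0.2 to -0.015). Casq2, the calcium store protein of the sarcoplasmic reticulum, read 0.6, -0.54 and -0.051 at 8 weeks, against 0.98, 1.08, 0.94 and 0.99 at 3 weeks (difference -0.99 ± 0.21, adjusted p = 0.00278). Gja1, the gap junction protein connexin 43, read 0.9, 0.2 and 1.43 at 8 weeks, against 2.03, 1.82, 1.72 and 1.72 at 3 weeks (difference -0.98 ± 0.22, adjusted p = 0.00512). Both had groups that did not overlap, with 8-week replicate 2 lowest. Asph fell by 0.92 and the kinase Camk2d by 0.41. The channel subunit Cacnb2 fell by 0.93 and was well above background on 0 of 3 8-week arrays, at least 1.79-fold lower by that probe. Its other probes were not called, at -0.41 (adjusted p = 0.12) and -0.017 (adjusted p = 0.953). The latter was well above background on 2 of 3 8-week arrays. Kcnh2, a potassium channel, rose by 0.47 but was not called with any 1 of 6 arrays left out (adjusted p of 0.0694 to 0.142, all but 3-week replicate 2). Pln, which restrains the calcium pump, differed by -1.05 (adjusted p = 0.135, and -0.34 without 8-week replicate 2).

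Of 25 ubiquitin ligase genes of muscle 3 rose and 3 fell, near the shares over all genes (7.89% and 9.58%). Fbxo31, an F-box protein, read 2.4, 2.34 and 2.5 at 8 weeks, against 1.44, 1.46, 1.4 and 1.45 at 3 weeks, groups far apart for their spread (difference 0.97 ± 0.14, adjusted p = 0.000126). Fbxo32, the atrophy ligase atrogin-1, read 2.19, 2.7 and 2.49 at 8 weeks, against 1.75, 1.78, 1.67 and 1.65 at 3 weeks (difference 0.75 ± 0.2, adjusted p = 0.0154, and 0.62 with adjusted p = 0.0577 without 8-week replicate 2). Trim54, which is MuRF3, read 2.62, 4.05 and 3.1 at 8 weeks, against 2.33, 2.43, 2.41 and 2.22 at 3 weeks (difference 0.91 ± 0.23, adjusted p = 0.00962, and 0.51 with adjusted p = 0.036 without 8-week replicate 2). In these 3 genes the groups did not overlap. Fbxo9 fell by 0.52 and Mdm2, the ligase of p53, by 0.4, both called under every alternative run, and Wwp1 fell by 0.27. The other Mdm2 probe, well above background on 1 of 3 8-week arrays, differed by -0.029 (adjusted p = 0.793). The other Wwp1 probes differed by 0.014 and -0.053. Wwp1 lost its call without 8-week replicate 1 (adjusted p = 0.0828) or 3-week replicate 1 (0.0627), 2 (0.0616) or 3 (0.0779). The probes for MuRF1 itself, Trim63, disagreed. The brighter one differed by -0.55 (adjusted p = 0.245) with all arrays, by 0.065 (adjusted p = 0.85) without 8-week replicate 2 and by -0.96 (adjusted p = 0.0297) without 8-week replicate 1. The dimmer one fell by 1.09 (adjusted p = 6.69e-07) and was well above background on 2 of 3 8-week and 4 of 4 3-week arrays. The mean of both differed by -0.82 (adjusted p = 0.0036). Trim55, which is MuRF2, differed by -0.43 (adjusted p = 0.172), and by -0.84 (adjusted p = 0.000204) without that array.

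Of 27 autophagy and lysosome genes, 4 rose and 0 fell, with a median of 0.021. The cargo adaptor Sqstm1 read 2.31, 1.8 and 2.19 at 8 weeks, against 0.75, 0.98 and 0.88 at 3 weeks, where replicate 4 had no value (difference 1.23 ± 0.16, adjusted p = 7.23e-05). Bnip3, a mitophagy receptor, read 1.99, -0.31 and 1.29 at 8 weeks, against -0.56, -0.69, -0.72 and -0.61 at 3 weeks (difference 1.63 ± 0.34, adjusted p = 0.00287). The groups were apart in both genes, and the lowest 8-week value was that of replicate 2. The cathepsin Ctsl rose by 0.87 and Gabarapl1, of the autophagosome membrane, by 0.71. Without 8-week replicate 2, 9 members were higher and 1 lower, while the series matrix gave 2 higher and 3 lower (median -0.018) and median centring 1 and 0. Proteasome genes had 2 of 33 members higher and 3 lower, near the shares over all genes (7.89% and 9.58%), and 1 and 1 without that array. Among 21 chaperone genes 1 rose and 3 fell. The small heat shock protein Hspb1 rose by 0.83, and the mitochondrial chaperonin Hspd1 fell by 1.0 ± 0.14 (adjusted p = 0.000146). The reticulum chaperones Hsp90b1 and Hspa5 fell by 0.62 and 0.55, while the other Hsp90b1 probe differed by 0.039 (adjusted p = 0.876). Hspa5 was not called without 8-week replicate 2 (adjusted p = 0.139) or 3-week replicate 1 (0.0787), 3 (0.0653) or 4 (0.062), and Hsp90b1 was not called without 3-week replicate 1 (0.0558) or 8-week replicate 1 (0.0687) or 3 (0.0734).

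Endothelial genes had the second highest list median, 0.51, with 8 of 24 called higher and 0 lower. They included the calcitonin receptor partner Ramp2 (1.11), the transcription factors Sox17 (1.42) and Sox18 (0.77), the junction regulator Rasip1 (0.8) and the lipase anchor Gpihbp1 (0.78). Ramp2 read 0.86, 2.26 and 0.94 at 8 weeks, against 0.2, 0.24, 0.17 and 0.35 at 3 weeks. The list's mean level was 0.79, 1.91 and 0.82 on the 8-week arrays and 0.65 to 0.88 on the 3-week arrays, so that only 8-week replicate 2 lay above the 3-week range. Without it, 4 members were higher and 5 lower, the median was 0.15, and Ramp2 and Sox17 remained called, at 0.66 (adjusted p = 0.00137) and 0.82 (adjusted p = 0.000223), as did Rasip1 at 0.48 (adjusted p = 0.0169), whereas Gpihbp1 did not (0.31, adjusted p = 0.0902). Gpihbp1 was not called without 3-week replicate 2 (adjusted p = 0.0561) or 3 (0.0607) either. With median centring 1 member was higher and 3 lower, and from the 7 arrays alone 0 and 0.

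The same array read high for other non-muscle lists. Of 28 extracellular matrix and fibroblast genes, 3 rose and 3 fell, near the shares over all genes (7.89% and 9.58%). Their mean level was -1.87, -1.16 and -1.79 on the 8-week arrays, against -1.82 to -1.54 on the 3-week arrays, and without 8-week replicate 2 there were 1 higher and 3 lower. The protease inhibitor Timp3 rose by 0.9 (0.39 without 8-week replicate 2) and the proteoglycan Lum fell by 0.99, with adjusted p of 0.0906 without 8-week replicate 1 and 0.0534 without replicate 3. Smooth muscle and pericyte genes had 1 of 15 higher and 2 lower, at mean levels of -0.38, 0.23 and -0.27 at 8 weeks, against -0.39 to -0.055 at 3 weeks. Macrophage and leukocyte genes had 4 of 20 higher and 1 lower, among them the neutrophil proteins S100a8 (0.78) and S100a9 (1.3), and without 8-week replicate 2 there were 1 and 1. S100a8 was not called without 8-week replicate 2 (adjusted p = 0.113) or 3-week replicate 1 (0.0618), nor S100a9 without 3-week replicate 1 (0.0506), and S100a9 was at 0.57 without 8-week replicate 2. Adipocyte genes had 2 of 14 higher and 0 lower (0 and 0 without that array), atrial genes 2 of 10 and 0, skeletal muscle genes 0 and 0 of 15, and red blood cell and platelet genes 0 and 1 of 6, with the adult beta globin gene Hbb-bt falling by 1.33. The part of these marker levels in the differences above was not tested.

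Of 24 immediate early genes, 5 rose and 0 fell, with a median of 0.32 (0.16 without 8-week replicate 2, and -0.054 with median centring). Maff read 0.66, 1.96 and 0.72 at 8 weeks, against -0.64, -0.51, -0.25 and -0.53 at 3 weeks (difference 1.59 ± 0.22, adjusted p = 0.000107), and Jund read -0.92, 0.061 and -0.11 at 8 weeks, against -2.5, -1.47, -1.51 and -1.7 at 3 weeks (difference 1.47 ± 0.25, adjusted p = 0.000571). The 8-week hearts lay above all 3-week hearts for both transcription factors. Klf2, a flow-responsive factor, rose by 1.44, the cytokine signal inhibitor Socs3 by 0.88, and Zfp36, which destabilizes cytokine mRNAs, by 0.43. Amino acid stress genes had 4 of 24 higher and 0 lower, with the pseudokinase Trib3 at 0.59 and the folate enzyme Shmt2 at 0.43. Aryl hydrocarbon receptor genes had 3 of 12 higher and 0 lower, of which the cytochrome Cyp1b1 rose by 0.58 ± 0.068 (adjusted p = 3.47e-05) and the glutathione transferase Gstm1 by 0.88, whereas Cyp1a1 differed by -0.32 (adjusted p = 0.37). The heme oxygenase Hmox1 rose by 0.67 but was not called without 8-week replicate 1 (adjusted p = 0.0537). Clock genes had 1 higher and 1 lower of 19, NAD metabolism genes 2 and 0 of 18, sterol and fatty acid synthesis genes 2 and 0 of 25, and interferon response genes 0 and 2 of 27. By limma, 0 of 23 cell cycle genes and 0 of 46 cytosolic ribosomal protein genes were called, with 4 and 3 at an unadjusted p below 0.05.

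Genes of mRNA splicing and RNA binding were mostly lower where called, 11 of 31 against 2 higher. Their median of -0.21 lay between -0.63 and -0.26 under 4 scaling alternatives and was -0.19 without 8-week replicate 2, where 1 was higher and 14 lower. Srsf6, an SR protein that selects splice sites, read -1.3, -1.29 and -1.34 at 8 weeks, against -0.79, -0.78, -0.66 and -0.61 at 3 weeks, with tight and separate groups (difference -0.6 ± 0.082, adjusted p = 0.000108). Srsf1 fell by 0.66, Rbm39 by 0.6 and Mbnl1, a regulator of the fetal-to-adult splicing switch, by 0.63. The kinases of SR proteins Clk1 and Clk4 fell by 1.0 and 0.79, and Tra2a by 0.92. Hnrnpd rose by 0.52 and Hnrnpu by 0.4. Hnrnpu was at -0.036 with median centring and was not called without 8-week replicate 2 (adjusted p = 0.0936) or 3 (0.0525) or 3-week replicate 1 (0.0627) or 2 (0.0535). A second Srsf1 probe (0.068) and a second Hnrnpu probe (-0.21, adjusted p = 0.175) had the opposite sign. The chow mean of Srsf6 was -1.3, that of Srsf1 -1.16 and that of Rbm39 -1.65, near the 8-week levels.

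Of 9 nuclear long noncoding RNA genes, 2 fell and 0 rose. Malat1, an abundant RNA of nuclear speckles, read -3.25, -0.82 and -2.38 at 8 weeks, against -0.65, -0.48, -0.86 and -0.38 at 3 weeks, so that 8-week replicate 2 lay within the 3-week range (difference -1.55 ± 0.39, adjusted p = 0.00961). Neat1, the scaffold of paraspeckles, read -2.18, 0.87 and -2.77 at 8 weeks, against 0.062, 0.21, 0.079 and 0.84 at 3 weeks (difference -1.66 ± 0.53, adjusted p = 0.038). Neat1 too had replicate 2 outside its group, above the highest 3-week heart, and without it the differences were -2.22 for Malat1 and -2.78 for Neat1. Malat1 was not called without 8-week replicate 1 (adjusted p = 0.0545), and Neat1 was not called without 8-week replicate 1 (0.134) or 3 (0.226) or any 1 of the 3-week arrays (0.0565 to 0.0939). Xist, the RNA that silences an X chromosome, read -2.7, -0.9 and -2.04 at 8 weeks, against -0.5, -0.41, -0.26 and 0.00089 at 3 weeks, and -4.06 on average in chow hearts (difference -1.59 ± 0.32, adjusted p = 0.0022). Its groups did not overlap, and its other probes differed by -1.36 and -0.41 (adjusted p = 0.00059 and 0.0583).

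**Figure D3:**
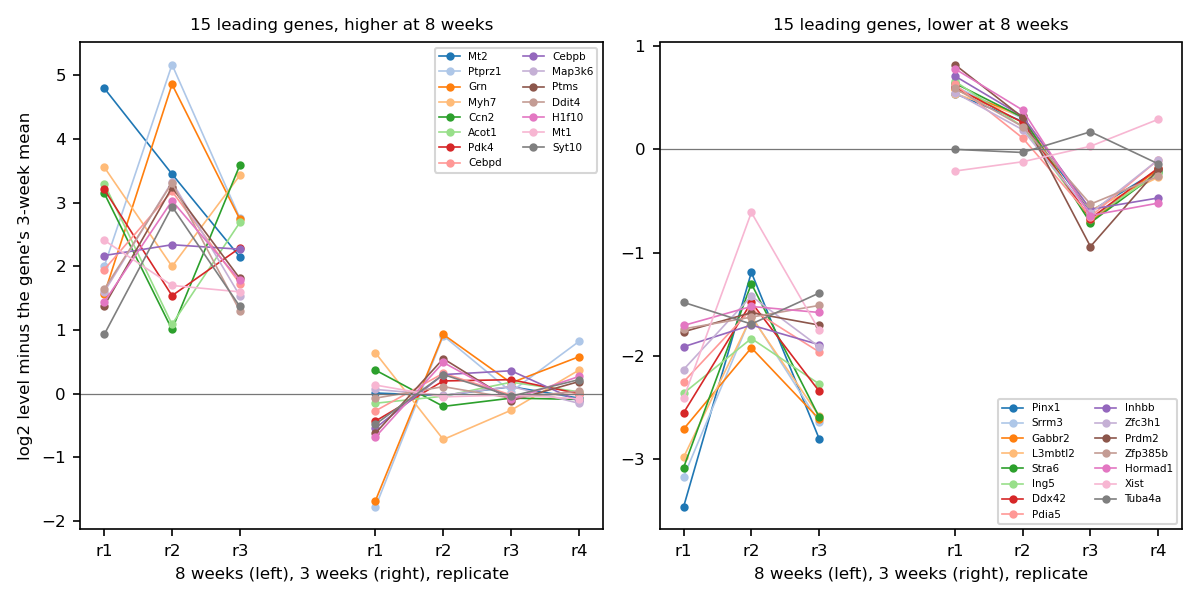
Level on each of the 7 arrays for 15 genes that rose and 15 that fell, each as its log2 level minus its 3-week mean, with 8-week arrays left of 3-week arrays. They have the greatest differences among called genes with non-overlapping groups, clone and accession-like names left out. Among the falling genes 13 of 15 have the 3-week replicates in the order 1, 2, 4, 3 from high to low.

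Among called genes with non-overlapping groups, clone and accession-like names left out, the 15 with the greatest fall had varied known roles. They included Srrm3, a splicing factor of neurons (-2.48), Pinx1, a telomerase inhibitor (-2.48), Gabbr2, a subunit of the GABA-B receptor (-2.41), L3mbtl2, a chromatin reader (-2.39), Stra6, a retinol carrier (-2.33) and Ing5, of histone acetylase complexes (-2.15). Srrm3 read 0.11, 1.67 and 0.64 at 8 weeks, against 3.89, 3.58, 2.59 and 3.06 at 3 weeks, and 0.24 on average in chow hearts. Stra6 read 0.16, 1.94 and 0.65 at 8 weeks, against 3.88, 3.55, 2.53 and 3.02 at 3 weeks, and 0.4 in chow hearts. Non-overlapping groups were a condition of entry for the 15 genes. The Srrm3 and Stra6 patterns were alike from array to array. In 13 of the 15 genes the 3-week replicates ran 1, 2, 4, 3 from high to low, an order that 8.61% of called lower genes and 5.7% of all genes had. In 13 of 15 the highest 8-week heart was replicate 2 (44.9% of called lower genes and 44.5% of all genes). The probes read for Inhbb, Prdm2, Zfp385b and Hormad1 were not well above background on any 8-week array. By these probes the genes were at least 3.35, 3.0, 2.75 and 2.72-fold lower.

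Other probes did not always bear these differences out. Of the 15 genes 11 had another probe, and 4 had one that was itself called in the same direction (Tuba4a, Xist, Zfc3h1 and Zfp385b). The other probe of Pinx1 differed by -0.13, of Gabbr2 by -0.067, of Ddx42 by -0.11, of L3mbtl2 by 0.15 and of Prdm2 by 0.08. Those of Ing5 differed by 0.2 and -0.097. That of Inhbb differed by 0.49 and was itself called in the opposite direction (adjusted p = 0.005). Tuba4a, an alpha tubulin of muscle, had a different array pattern, reading -0.28, -0.49 and -0.19 at 8 weeks, against 1.2, 1.17, 1.37 and 1.06 at 3 weeks and 1.29 in chow hearts. Its tight groups gave a difference of -1.52 ± 0.12 (adjusted p = 8.25e-07), and both other probes fell, by 1.14 and 1.05.

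In the 15 genes with the greatest rise, chosen by the same rule, Ptprz1 and Grn had similar array patterns. Ptprz1, a receptor phosphatase, read 0.65, 3.82 and 1.41 at 8 weeks, against -3.13, -0.44, -1.32 and -0.53 at 3 weeks (difference 3.31 ± 0.63, adjusted p = 0.00173, and 2.38 without 8-week replicate 2). Grn, the precursor of the granulins, read -0.34, 2.96 and 0.84 at 8 weeks, against -3.58, -0.97, -1.73 and -1.32 at 3 weeks (difference 3.06 ± 0.6, adjusted p = 0.00189, and 2.15 without that array). In both, 8-week replicate 2 was the highest and 3-week replicate 1 the lowest heart. The first held for 9 of the 15 genes, near its share of called higher genes (52.8%, and 44.5% of all genes). The second held for 10 of 15, also near its share of called higher genes (57.8%, and 26.6% of all genes). The other Grn probe rose by 0.64, while the other Ptprz1 probes differed by 0.19 and -0.57. The latter was called in the opposite direction (adjusted p = 0.0237). The linker histone H1f10 rose by 2.08, the thymosin-related Ptms by 2.14 (other probe 0.86), the stress kinase Map3k6 by 2.15 (other probe 1.88) and the calcium sensor Syt10 by 1.74 (1.15 without 8-week replicate 2). Of these 15 genes 7 had another probe, and 4 had one called in the same direction.

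**Figure D4:**
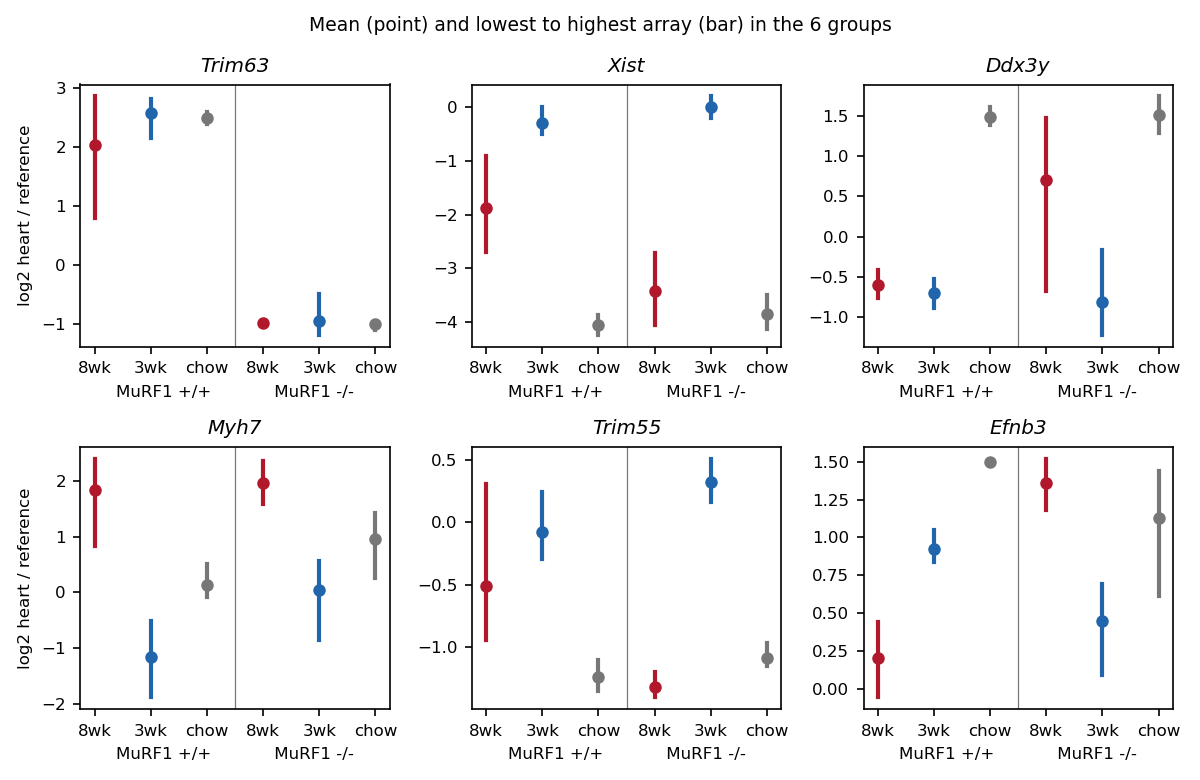
Level (log2 heart over reference) of 6 genes in the 6 groups, as the mean (point) and the lowest to highest array (bar), n = 3 or 4 arrays. Trim63 lies near -1 in the 3 MuRF1 -/- groups, Ddx3y is highest in the chow groups, and Efnb3 lies lower at 8 than at 3 weeks in MuRF1 +/+ hearts and higher in MuRF1 -/- hearts.

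The chow hearts place each difference. Of the 2546 called genes, 1504 (59.1%) had a chow mean nearer the 8-week than the 3-week mean, against 47.9% of all genes tested. The share was 53.1% of the genes that rose and 64% of those that fell, and in 1335 genes the chow mean lay between the 2 diet times. The means of Mt2, Mt1, Cdkn1a, Pdk4, Acot1 and Angptl4 were nearer chow at 3 weeks and above it at 8 weeks. Those of Srrm3, Srsf6, Creb3l3 and Malat1 were nearer chow at 8 weeks and above it at 3 weeks. Differences from chow were not tested here, and the chow hearts differed from both fenofibrate groups in their Y-linked transcripts.

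The same comparison in MuRF1 -/- hearts, on other arrays, called 4582 genes (31.5%), of which 1960 rose (13.5%) and 2622 fell (18%). Of the genes called in MuRF1 +/+ hearts, 92.4% had the same sign in MuRF1 -/- hearts, against 69.1% of all genes. Called in the same direction in both genotypes were 1587 genes, which are 34.6% of the MuRF1 -/- calls and 62.3% of the MuRF1 +/+ calls, and 9 were called in opposite directions. Genes that rose in MuRF1 +/+ hearts had a median difference of 0.34 in MuRF1 -/- hearts, and genes that fell had -0.39. Over genes, which are not independent replicates, the differences had a Pearson correlation of 0.601. The Y-linked transcripts were well above background in 2 of 3 8-week and 1 of 4 3-week MuRF1 -/- hearts, and their part in this was not tested.

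**Figure D5:**
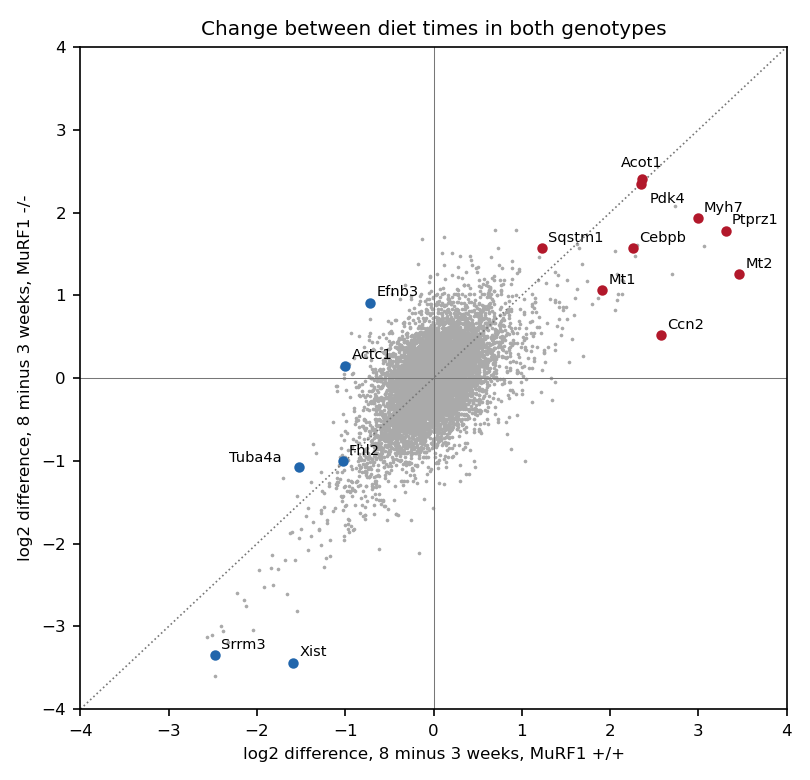
Log2 difference, 8 minus 3 weeks of fenofibrate, for each of 14567 genes in MuRF1 -/- hearts (vertical axis) against MuRF1 +/+ hearts (horizontal axis). The dotted line marks equal differences. Pdk4 and Acot1 lie on it, Mt2 and Ccn2 below it, and Efnb3 lies in the quadrant of opposite signs.

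Pdk4 and Acot1 rose in both genotypes, by 2.34 and 2.4 in MuRF1 -/- hearts, against 2.35 and 2.36 in MuRF1 +/+ hearts. Mt2 rose by 1.26 in MuRF1 -/- and 3.46 in MuRF1 +/+ hearts, and Myh7 by 1.93 and 2.99. Ccn2 differed by 0.52 in MuRF1 -/- hearts (adjusted p = 0.374) and Actc1 by 0.15 (adjusted p = 0.587). The difference of the changes, MuRF1 +/+ minus MuRF1 -/-, did not pass for Mt2 (2.2 ± 0.59, adjusted p = 0.132), Ccn2 (2.06 ± 0.61, adjusted p = 0.149) or Actc1 (-1.16 ± 0.28, adjusted p = 0.115). It passed for 1 gene of 14567 (0.00686%), Efnb3, a ligand of Eph receptors, and 2732 genes had an unadjusted p below 0.05. Efnb3 read 0.44, -0.056 and 0.21 at 8 weeks, against 0.85, 1.05, 0.84 and 0.92 at 3 weeks in MuRF1 +/+ hearts, a fall of 0.72 with no overlap, while it rose by 0.91 in MuRF1 -/- hearts. Its difference of the changes was -1.63 (adjusted p = 0.0416). The count of such genes rested on single arrays: it was 21 without MuRF1 -/- 3-week replicate 4, 3 without MuRF1 -/- 8-week replicate 2, 1825 without MuRF1 +/+ 8-week replicate 1 and 5 without MuRF1 +/+ 8-week replicate 3. It was 0 without MuRF1 -/- 8-week replicate 1 or 3, MuRF1 -/- 3-week replicate 1 or 2, or any 1 of the 4 MuRF1 +/+ 3-week arrays. Without MuRF1 +/+ 8-week replicate 2 the count was 1, a gene with a positive difference of the changes, and Efnb3 lost its call.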

How the data were processed

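RNA of whole hearts was measured on 20 Agilent 2-colour arrays of design 014868, and the 7 MuRF1 +/+ fenofibrate arrays carry the comparison. The deposited scanner files hold spot intensity and local background, per the file headers from Feature Extraction 9.5.3.1, together with flags of 0 or 1 per spot. Per the file headers, the same deposited files carry a log10 ratio (Cy5 over Cy3) that Agilent's software computed from signals it had background-subtracted and dye-normalized. The authors' log2 values are deposited in a series matrix. The steps behind it are not given in the sources used here. Against Agilent's ratio they had slopes of 0.982 to 1, which settles scale and direction, and column medians of -0.006 to 0.0093. The channel labels put the heart in Cy5, while the labelling protocol speaks of Cy3 for heart RNA. The channel labels were followed.

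In limma 3.58.1 (R 4.3.3), normexp with an offset of 50 corrected the background and loess normalized each array. The normexp step omitted spots with a background over 50 above their signal. Control spots had weight 0 in loess, outlier spots were treated as missing, and spots of a probe were averaged, giving 41174 probes. Probes were named through RefSeq (GRCm38.p6): 22951 by accession, 6659 by a current symbol and 3109 by a synonym, while 8455 kept the name in the files. Each gene was read from its probe with the brightest heart signal. The 14567 genes whose probe passed the scanner's background test on at least 3 arrays were tested. Genes with near-identical copies are uncertain.

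All 20 arrays entered one limma model of 6 group means (eBayes with trend), with Benjamini-Hochberg adjustment at 0.05 over all tested genes. It was tested on simulated data first. P-values and SEs rest on a spread per gene that all 6 groups share. They may understate the spread of the 8-week hearts, whose arrays correlated at 0.795 to 0.951, against 0.975 to 0.988 at 3 weeks. For Mt2 the SD was 1.32 at 8 weeks and 0.077 at 3 weeks, while the SE of the difference was 0.42. The numbers of arrays limit the precision. The comparison, the 33 gene lists (794 genes, 737 tested) and the named genes were chosen with earlier results of these data known. Lists have no test of their own. The named genes were the 15 called, non-overlapping genes with the greatest difference in each direction, up to 4 called members per direction and 2 uncalled members of each list, a fixed set around MuRF1, PPAR alpha and sex-linked genes, and genes past the test between genotypes (217 genes). Clone and accession-like names were left out of the 15 in each direction. Klf9, Sesn1, Tsc22d3, Slc27a1, Pdhb, Tpi1, Ndufs1, Sdhd, Camk2d, Clk1, Clk4, Tra2a, Klf2, Gpihbp1 and Ly6c1 were added after their values were seen, making 232. Of the 217, 93 had another probe, and in 23 another probe had the opposite sign.

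Arrays lay on 5 slides, told apart by their scan, and 4 arrays carry another slide's number in the header. Alternatives changed the background fit, the values (Agilent's ratio, series matrix, heart channel alone), centring, filter, probe rule, arrays in the fit, slide or replicate block, array weights, and each array in turn. Leaving out the 2 arrays that stood apart was chosen after seeing the data. Results of 1 named gene are not reported here.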

Additional observations from a re-analysis of the deposited data

Results flagged for a closer look

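In the 4 MuRF1 +/+ hearts at 3 weeks, 1 array lay far from the other 3 for 8 of 232 named genes and 2 of 33 list means, where chance sets an array apart in about 1 in 20 groups. On replicate 1 these were Acot2 at 0.0073, Hk1 at 0.44, Srebf1 at -1.86 and Camk2d at 1.28. Clk4 was at 0.41 on replicate 2, Cidea at -1.68 and Gbp3 at 0.99 on replicate 3, and Myl7, an atrial myosin light chain, at -0.58 on replicate 4. The mean level of the splicing and RNA binding genes was -0.41 on replicate 2, and that of the autophagy and lysosome genes was 0.085 on replicate 4.

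The 8-week minus 3-week change of Efnb3 differed between genotypes by -1.63 (MuRF1 +/+ minus MuRF1 -/-, adjusted p = 0.0416 in limma). The call was lost in several runs with a single array left out.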

How the results depend on the processing

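Of 154 named genes that were called, 52 kept their call under every alternative with a test and 102 lost it under at least 1, 83 of them with median centring, 77 when the spread came from the 7 arrays alone, 41 when slide was a block and 41 when 8-week replicate 2 was left out. With each of the 7 arrays left out in turn, 94 of the 154 kept their call and 60 lost it at least once. Signs changed for Myom2 in the series matrix (-0.0069), for Clu (-0.022), Cpt1a (-0.13), Hnrnpu (-0.036) and Psmd3 (-0.025) with median centring, and for Sirt1 on the slide of 8-week replicate 1 and 3-week replicate 2 (-0.035). The cause of these changes was not tested. Of the named genes not called, 53 passed under at least 1 alternative.

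The 2546 calls became 3859 with Agilent's log ratio, 1217 with median centring and 1027 from the 7 arrays alone, where fewer arrays estimate the spread. With single arrays left out they ranged from 1719 to 2738. The 4582 calls in MuRF1 -/- hearts became 2052 with median centring and 7273 with array weights, and ranged from 3227 to 4812 with single arrays left out. The 1 gene whose change differed between genotypes became 3 with Agilent's log ratio, 2 in the series matrix, 2 with the heart channel alone, 0 with median centring, 0 with slide as a block, 595 with array weights and 23 without the 2 arrays that stood apart. With single arrays left out it ranged from 0 to 1825. Deviations of same-numbered 8-week and 3-week arrays correlated at 0.375, -0.065 and 0.141. Without a reference value for paired samples, these correlations cannot decide whether the replicate numbers pair the samples. With the replicate numbers as a block, 2745 genes were called in MuRF1 +/+ and 4238 in MuRF1 -/- hearts. In that run 2 genes differed between genotypes. On the 7 arrays 34.8% to 48% of heart spots were well above background, so many dim genes have only a bound.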
